A study of Mus musculus with 12 samples.

Results

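The comparison described here was that of mouse hepatocytes lacking both floxed alleles of Sox9 with hepatocytes lacking 1, both on a background of Mst1 and Mst2 deletion. It held 4 of the 12 libraries of the series, chosen by their labels and not by their values, and covered the 10681 of 16116 measured genes that reached a log2 value of 1 in at least 2 of the 12 libraries. The 2 libraries of the first group, called TKO, came from animals with both copies of Mst1, Mst2 and Sox9 floxed. The 2 libraries of the second, called DKO-het, came from animals floxed on both copies of Mst1 and Mst2 but on a single copy of Sox9 (Sox9 fl/+). Both groups carried the reporter ROSA26-lsl-TdTomato and received AAV2/8-TBG-Cre, an adeno-associated virus that makes Cre recombinase from the hepatocyte promoter TBG. The 2 floxed GFP controls had floxed Mst1 and Mst2 and the same reporter, no floxed Sox9 allele and, in place of Cre, AAV2/8-TBG-GFP. The virus was injected at 3 weeks of age and cells were sorted 4 weeks later, TdTomato-positive for both mutant groups and GFP-positive for the controls, after exclusion of cells with the bile duct marker Epcam or the leukocyte marker CD45. The other 6 libraries formed an experiment in which YAP was activated by a TBG-driven virus for the mutant YAP S127A for 3 weeks from the same age. It used Sox9 fl/fl animals (YAP null) and Sox9 fl/+ animals (YAP het), both also given AAV2/8-TBG-Cre, and wild type animals given AAV2/8-TBG-GFP (WT GFP), 2 libraries each.

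MST1 and MST2 are kinases at the head of the Hippo pathway, in which they activate the LATS kinases that phosphorylate YAP and TAZ and keep them out of the nucleus. When these kinases are lost, YAP and TAZ bind TEAD transcription factors and switch on genes of growth and of the bile duct programme. SOX9 is an HMG-box transcription factor of bile duct cells and of liver progenitors, and hepatocytes in which YAP is active gain its expression.

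Values were deposited as log2 CPM, a measure in which reads are scaled to a common library total, from a panel that reads 1 amplicon per gene. No source used here states the read depth. Linear values summed to 1001696 and 1003198 in the TKO libraries, to 947386 and 972612 in the DKO-het libraries and to 904975 and 884375 in the floxed GFP controls. As deposited, the values thus did not share 1 total, and the TKO sums were the highest of these. The part of this gap in differences between groups was not tested. The libraries of a pair correlated across genes with r = 0.976 in TKO and 0.971 in DKO-het, and 448 and 501 genes differed by over 1 log2 unit within those pairs. To judge from the values, before deposition the spread of each gene around its group mean had been multiplied by its own factor (median 1.58). Gene by gene, first and second libraries of the Mst experiment had also been brought to equal means, with a median gap of 0.0051. A first library above its mate in 1 group thus goes with a first library below its mate in another. Library orders within that experiment, and values with 1 library left out, are therefore in part built in. The 2 sets of GFP controls had equal means too (median gap 0.00849), so levels of the 2 experiments are aligned on their controls. The labels do not say that paired libraries came from separate animals, so p-values rest on a spread that may be technical.

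With loss of the second Sox9 allele under Mst1 and Mst2 deletion, 5 genes passed an adjusted p of 0.05 by limma, which is 0.0468% of the 10681 tested. Sox9, Tmub2 and Sec22a fell in TKO (0.0281% of genes) and Vamp2 and 2610507I01Rik rose (0.0187%). Of these, 4 lie on chromosome 11, the chromosome of Sox9. The same 4 were called with the same sign between YAP null and YAP het libraries, which share no library with TKO or DKO-het. In both experiments the groups differ in the number of floxed Sox9 alleles, and so in any sequence linked to them on chromosome 11, as they do in Sox9 loss, and for Tmub2, Vamp2 and 2610507I01Rik these cannot be told apart. Below the call the distribution leaned to one side. At an unadjusted p under 0.05 there were 629 genes (5.89%), 566 of them higher in TKO (5.3%) and 63 lower (0.59%). Over all genes the median difference was 0.09 on the log2 scale, with 63.4% of genes above 0 and 36.2% below. Equalising the library medians moved that median to -0.042 and quantile normalization to -0.028, and either way 6 genes were called. Set against the floxed GFP controls, which both comparisons share, 829 genes were called in TKO (7.76%, with 735 or 6.88% higher and 94 or 0.88% lower) and 454 in DKO-het (4.25%, with 369 or 3.45% higher and 85 or 0.796% lower). Before the rescaling of the spread, 202 genes were called (176 higher and 26 lower), the 5 among them. When the replicate number was also fitted as a block, 5 were called (2 higher and 3 lower), of which 4 were among the main 5 and Vamp2 was not. In the Mst experiment that block had little to remove, as first and second libraries already had equal means. The lower count is therefore no check on replicate effects there.

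**Figure D1:**
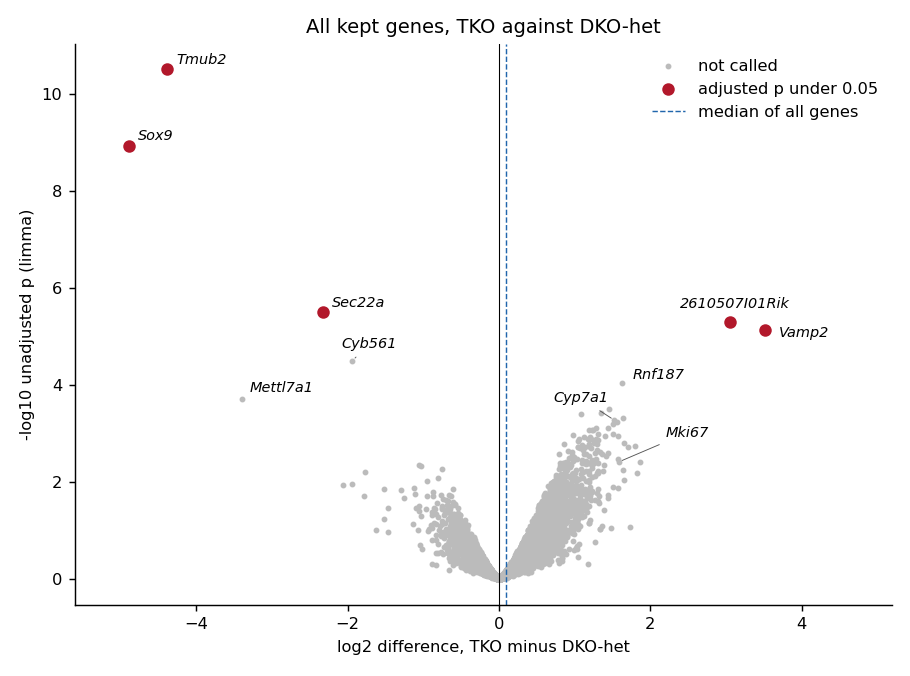
Log2 difference between TKO and DKO-het (x axis) against the negative log10 of the unadjusted limma p (y axis) for 10681 genes, with the 5 called genes in red. Tmub2 and Sox9 stand apart on the left at -4.38 and -4.88 (log2), and the grey cloud has more genes on its right arm (566 higher and 63 lower at an unadjusted p under 0.05).

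Sox9, the deleted gene, lies on chromosome 11 (chr11:112782224-112787760, plus strand of GRCm38, from GENCODE M21). It was measured at 1.41 and 1.29 log2 CPM in TKO, 6.47 and 6.0 in DKO-het and 4.33 and 3.13 in the floxed GFP controls. Both TKO libraries were below both controls, both DKO-het libraries were above them, and no group overlapped another. Sox9 fell in TKO by 4.88 (log2, SE 0.38, limma adjusted p = 6.31e-06), to 3.38% of the DKO-het level on the linear scale. Against the floxed controls the difference was -2.38 in TKO (adjusted p = 8.73e-04) and 2.502 in DKO-het (adjusted p = 8.15e-04), and these comparisons share the control libraries. In the YAP experiment Sox9 fell too, by 2.40 in YAP null against YAP het (adjusted p = 0.0132), with 2.28 and 2.62 in YAP null, 4.41 and 5.28 in YAP het, and 3.90 and 3.59 in WT GFP. The difference between the experiments, -2.49, did not pass (SE 0.54, adjusted p = 0.279). In sorted bulk cells, fewer cells that express a gene and less RNA per cell cannot be told apart.

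**Figure D2:**
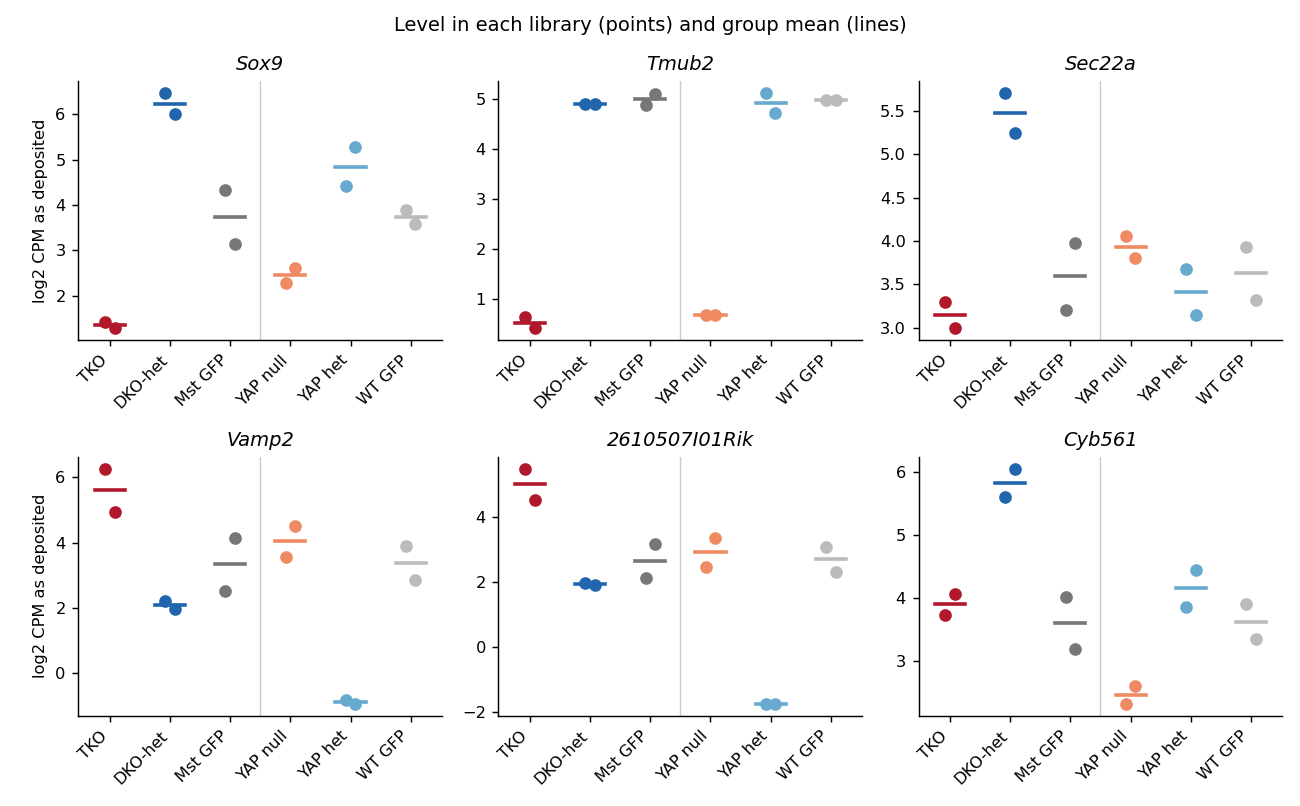
Level (y axis, log2 CPM as deposited) of the 5 called genes and of Cyb561 in each library (points, with the group mean as a line) for TKO, DKO-het and floxed GFP controls (Mst GFP) and, right of the grey line, YAP null, YAP het and WT GFP. Each group has 2 libraries. In all 6 panels both TKO points lie on the same side of both DKO-het points, which the choice of genes by their difference favours.

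Tmub2, which encodes a transmembrane protein with a ubiquitin-like domain, lies 10.5 Mb before Sox9 (chr11:102284931-102289237, plus strand). It stood at 0.62 and 0.40 log2 CPM in TKO, against 4.90 and 4.90 in DKO-het and 4.89 and 5.11 in the floxed controls. Both TKO libraries were below all DKO-het and control libraries, which overlapped each other. Tmub2 fell in TKO by 4.38 (SE 0.27, limma adjusted p = 3.41e-07), to 4.79% of the DKO-het level. The YAP experiment gave 0.68 and 0.68 in YAP null, 5.13 and 4.72 in YAP het and 4.98 and 4.98 in WT GFP. The fall there, 4.25 (adjusted p = 5.48e-07), differed from that in the Mst experiment by -0.14 (SE 0.38, adjusted p = 1). Each library of the series with both Sox9 alleles floxed therefore had Tmub2 under 0.7 log2 CPM, and each of the other 8 was above 4.7.

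Vamp2 and the noncoding transcript gene 2610507I01Rik rose in TKO. Vamp2 encodes synaptobrevin, a vesicle protein of membrane fusion (chr11:69088490-69092384, plus strand, 43.69 Mb before Sox9). Its values were 6.27 and 4.92 log2 CPM in TKO, 2.21 and 1.96 in DKO-het and 2.53 and 4.15 in the floxed controls. Both TKO libraries were above all 4 others, and the TKO pair itself spanned over 1 log2 unit. The rise was 3.51 (SE 0.53, limma adjusted p = 0.0155), or 11.4-fold. For 2610507I01Rik (chr11:59199836-59202385, minus strand, annotated as a processed transcript, 53.58 Mb before Sox9) the values were 5.48 and 4.51 in TKO, 1.98 and 1.89 in DKO-het and 2.12 and 3.18 in the floxed controls. Here too the TKO libraries lay above the rest, and DKO-het lay below both controls. The rise was 3.06 (SE 0.45, limma adjusted p = 0.0137), or 8.34-fold. Neither gene passed in DKO-het against the floxed controls (-1.25, adjusted p = 0.249 for Vamp2 and -0.71, adjusted p = 0.487 for 2610507I01Rik), while both passed in TKO against them (2.26, adjusted p = 0.0147 and 2.35, adjusted p = 0.00372). The calls of both ended without library 1 of TKO (adjusted p = 0.291 for each) and without library 2 of DKO-het (0.143 for each).

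Both genes also rose in YAP null against YAP het, but around other levels, in values aligned on the equal means of the GFP controls. Vamp2 was at 3.56 and 4.52 log2 CPM in YAP null, -0.81 and -0.93 in YAP het and 3.88 and 2.87 in WT GFP (4.92 between the first 2 groups, adjusted p = 3.66e-04). For 2610507I01Rik the values were 2.46 and 3.35 in YAP null, -1.74 and -1.74 in YAP het and 3.07 and 2.31 in WT GFP (4.65, adjusted p = 1.32e-04). The YAP het values of both genes lay below the log2 value of 1 used as a filter. The size of these 2 differences therefore rests on low values of unknown precision. In the YAP experiment the null libraries overlapped the wild type ones for both genes, and the low group was YAP het. In the Mst experiment TKO stood above its controls. The difference between the experiments did not pass for either gene (-1.40, SE 0.75 for Vamp2 and -1.59, SE 0.64 for 2610507I01Rik, adjusted p = 1 for both).

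Chromosome 11 held 853 of the tested genes, of which 0.469% were called, against 0.0468% over all tested genes. The YAP experiment had 18 called genes (0.169% of 10681, 12 or 0.112% higher and 6 or 0.0562% lower in YAP null), of which 6 lay on chromosome 11: the ubiquitin ligase gene Rnf187 and the ubiquitin-conjugating enzyme gene Ube2o beside the 4 above. Rnf187 (chr11:58932288-58938916, minus strand) was at 7.90 and 7.36 in TKO, 6.06 and 5.93 in DKO-het and 5.83 and 6.49 in the floxed controls. Its difference in the Mst experiment, 1.63 (SE 0.31), did not pass (adjusted p = 0.138), while it rose by 2.14 in YAP null (adjusted p = 0.00709). Cyb561, a transmembrane cytochrome that carries electrons from ascorbate, lies 6.85 Mb before Sox9 (chr11:105933702-105953336, minus strand). Its values were 3.73 and 4.06 in TKO, 5.61 and 6.05 in DKO-het and 4.01 and 3.19 in the floxed controls, so TKO and control libraries overlapped and DKO-het lay above them. The difference of -1.94 (SE 0.33, adjusted p = 0.0559) just missed the call, and that in the YAP experiment was -1.70 (adjusted p = 0.0665).

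The tested genes within 5 Mb of Sox9, and those next to the other called genes of chromosome 11, did not share the size of the called differences. Within 5 Mb of Sox9, 74 other tested genes had 0 calls, 3 at an unadjusted p under 0.05 and differences between -0.40 and 0.83, with a median of 0.14. The tested genes on either side of Sox9, Map2k6 and Slc39a11, differed by 0.28 and 0.53. Atxn7l3, whose start is 4.37 kb from that of Tmub2, was at 5.93 and 5.45 in TKO and 5.37 and 5.44 in DKO-het (difference 0.29). Hdac5, the histone deacetylase gene on the other side of Tmub2, differed by 0.15. The clock gene Per1, 6.73 kb from Vamp2, was at 3.57 and 4.98 in TKO and 3.98 and 3.5 in DKO-het (0.53). Guk1 and Mrpl55, which flank 2610507I01Rik, differed by 0.01 and -0.075, and Tmem107, on the other side of Vamp2, by 0.74. Among these 8 neighbours the lowest adjusted p was 0.861, that of Slc39a11. Further out, some genes had larger differences that did not pass. Rnf187, 53.85 Mb before Sox9 where 2610507I01Rik is 53.58 Mb before it, differed by 1.63. Between these 2 genes, Trim11 differed by 0.60 and Iba57 by -0.195. Ctc1, 43.77 Mb before Sox9 where Vamp2 is 43.69 Mb before it, differed by 1.12.

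**Figure D3:**
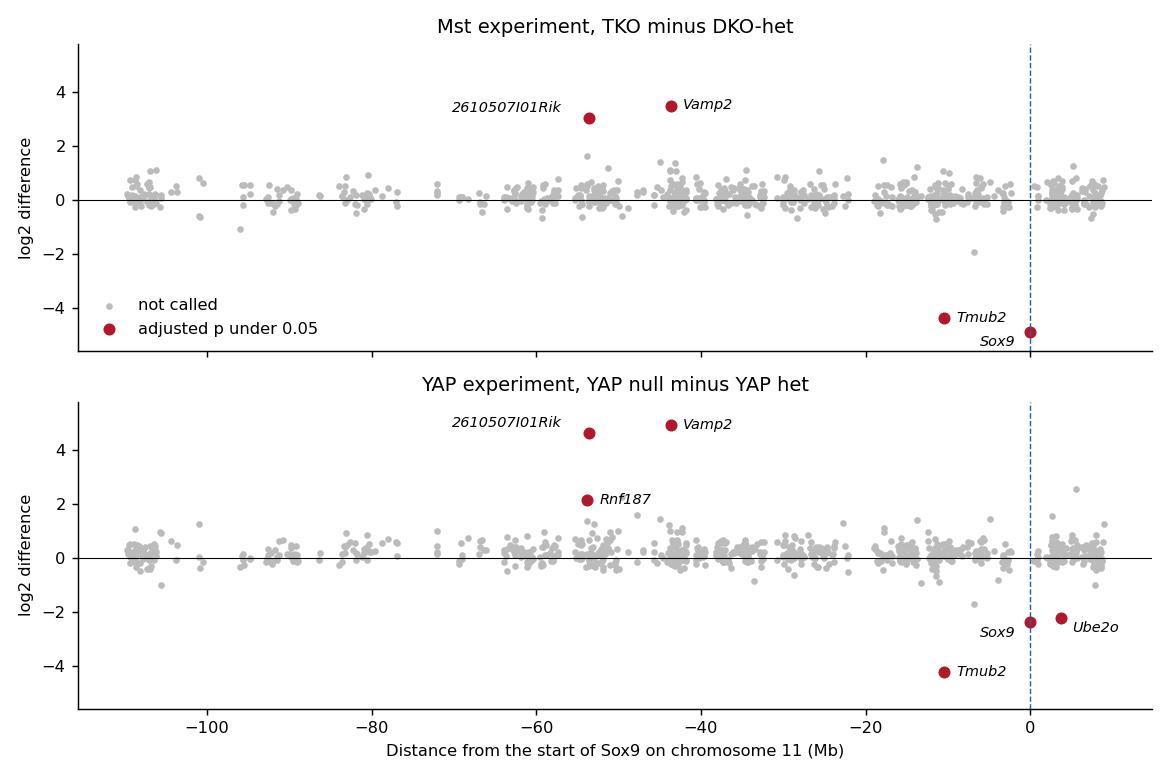
Log2 difference (y axis) of the 853 tested genes of chromosome 11 by distance of their start from that of Sox9 (x axis, Mb), for TKO minus DKO-het (top) and YAP null minus YAP het (bottom), with called genes in red. In both panels Tmub2 and Sox9 lie below the band of other genes and Vamp2 and 2610507I01Rik above it.

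Sec22a, a relative of the vesicle-trafficking SNARE protein SEC22B, was the only called gene on another chromosome (chr16:35311131-35363918, minus strand). Its values were 3.30 and 3.00 log2 CPM in TKO, 5.71 and 5.24 in DKO-het and 3.21 and 3.98 in the floxed controls. The DKO-het libraries stood above all others, and TKO overlapped the controls. Sec22a fell in TKO by 2.33 (SE 0.33, limma adjusted p = 0.0114), to 19.9% of the DKO-het level. It had risen in DKO-het against the floxed controls (1.88, adjusted p = 0.00284), while TKO differed from them by -0.45 (adjusted p = 0.523). The YAP groups gave 4.06 and 3.81 in YAP null, 3.67 and 3.15 in YAP het and 3.93 and 3.32 in WT GFP, a difference of 0.52 (adjusted p = 0.846). The difference between the experiments, -2.85 (SE 0.47), had the smallest unadjusted p of all genes, 1.73e-05, but did not pass (adjusted p = 0.127). The call within the Mst experiment ended without library 2 of TKO (adjusted p = 0.111) and also missed, at the threshold itself, without library 1 of DKO-het (0.05003).

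RefSeq promoter windows of GRCm38.p6 held an entry for 2 of the 5 called genes, Sec22a and 2610507I01Rik, and these are shown as the sequence next to the start of a gene that fell and of one that rose. Each is 300 bases, 5′ to 3′ on the strand of the gene. Capitals mark ACAAAG, a core of sites bound by Sox proteins.
Sec22a, chr16:35363869-35364168, minus strand: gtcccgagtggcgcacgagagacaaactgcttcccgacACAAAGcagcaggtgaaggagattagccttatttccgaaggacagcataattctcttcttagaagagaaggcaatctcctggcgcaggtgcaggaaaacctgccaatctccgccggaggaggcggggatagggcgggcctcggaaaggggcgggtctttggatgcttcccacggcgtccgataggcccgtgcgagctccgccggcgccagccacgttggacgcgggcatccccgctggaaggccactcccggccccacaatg
2610507I01Rik, chr11:59202382-59202681, minus strand: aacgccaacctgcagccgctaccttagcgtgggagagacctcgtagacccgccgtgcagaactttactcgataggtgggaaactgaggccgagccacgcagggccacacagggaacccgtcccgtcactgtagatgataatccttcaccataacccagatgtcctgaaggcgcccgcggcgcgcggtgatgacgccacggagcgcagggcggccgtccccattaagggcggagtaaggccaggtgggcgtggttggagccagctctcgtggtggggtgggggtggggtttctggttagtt
Both strands were searched for the Sox cores AACAAT and ACAAAG and for the TEAD core GGAATG, and matches could share letters. The Sec22a window held 1 match, ACAAAG, and that of 2610507I01Rik held 0. Over 32851 windows of that length, 10.7% held AACAAT, 18.7% ACAAAG, 27% either Sox core and 14.7% GGAATG, so a match in 1 window of 2 is a description and not a site. Sox9, Tmub2 and Vamp2 are named only.

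Neither of the kinase genes that both groups had floxed passed the test between them. Stk4, which encodes MST1, was at 4.49 and 4.09 in TKO, 4.25 and 4.74 in DKO-het and 4.89 and 4.82 in the floxed controls, a difference of -0.20 between the mutants (SE 0.25, adjusted p = 1). Stk3, which encodes MST2, was at 3.98 and 4.45 in TKO, 4.24 and 4.03 in DKO-het and 4.04 and 3.78 in the controls (0.09, SE 0.27, adjusted p = 1, and -0.047 with library medians equalised). Both genes overlapped between the mutants, and Stk3 overlapped with the controls too. No source used here places the amplicons within these genes, and one outside the floxed exons would check nothing. Yap1 was at 6.67 and 6.69 in TKO, 6.44 and 6.30 in DKO-het and 6.46 and 6.60 in the controls, and its difference of 0.31 (SE 0.24) did not pass (adjusted p = 1).

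At an unadjusted p under 0.01 there were 151 genes higher (1.41%) and 11 lower in TKO (0.103%, together 1.52%). Called genes included, 116 of the higher and 10 of the lower ones had groups that did not overlap and a group mean of 4 log2 CPM or more on the high side. On the lower side, the methyltransferase-like gene Mettl7a1 had the largest difference among those not called, -3.39 (SE 0.70, adjusted p = 0.259). It was at 3.24 and 6.14 in TKO and 8.58 and 7.57 in DKO-het, so that the 2 TKO libraries were further apart than TKO 2 was from DKO-het 2. Without library 1 of TKO its difference was -1.94. The guidance receptor gene Robo1 (-1.77), the epidermal growth factor receptor gene Egfr (-1.05), the deiodinase gene Dio1 (-1.02), the kynurenine aminotransferase gene Kyat1 (-0.81) and the peroxisomal membrane protein gene Pxmp4 (-0.76) had adjusted p between 0.518 and 0.638. Egfr was at 7.89 and 8.63 in TKO, 9.36 and 9.25 in DKO-het and 9.19 and 8.60 in the floxed controls. Dio1, which activates thyroid hormone, was at 4.87 and 5.56 in TKO, 6.12 and 6.36 in DKO-het and 7.07 and 6.19 in the controls. Both genes were named on condition that TKO and DKO-het did not overlap. Dio1 also fell in TKO against the controls (-1.42, adjusted p = 0.00928).

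On the higher side, Cyp7a1, whose enzyme starts the making of bile acids and limits its rate, was at 6.84 and 6.71 in TKO, 5.46 and 5.04 in DKO-het and 6.80 and 7.31 in the floxed controls. TKO and control libraries overlapped, and DKO-het lay below both. The difference of 1.52 (SE 0.35) did not pass (adjusted p = 0.431), while Cyp7a1 had fallen in DKO-het against the controls (-1.80, adjusted p = 0.00608), with TKO at -0.28 from them (adjusted p = 0.754). The same order held for Lrp6, a co-receptor of Wnt ligands, at 6.65 and 6.37 in TKO, 4.97 and 5.18 in DKO-het and 6.44 and 6.50 in the controls (1.44, SE 0.35, adjusted p = 0.444). Lrp6 had fallen in DKO-het against the controls (-1.40, adjusted p = 0.0302). The ubiquitin ligase gene Trim26 (1.50) and Ppm1k, the phosphatase that activates branched-chain amino acid breakdown (1.70), were likewise called lower in DKO-het against the controls (-1.60 and -2.26, adjusted p = 0.0148 and 0.00802).

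Other genes on the higher side were placed differently against the floxed controls. Osbpl3, an oxysterol-binding protein gene, was at 9.56 and 8.73 in TKO, 7.31 and 7.97 in DKO-het and 4.56 and 4.72 in the floxed controls. It rose in both mutants against the controls (4.51 in TKO, adjusted p = 1.96e-06, and 3.00 in DKO-het, adjusted p = 1.59e-04), and the difference between them, 1.51 (SE 0.37), did not pass (adjusted p = 0.444). Rragd, a Rag GTPase that signals amino acid supply to mTORC1, was at 7.77 and 7.39 in TKO, 5.79 and 6.47 in DKO-het and 4.16 and 3.83 in the controls (1.45, SE 0.31, adjusted p = 0.375). For both genes the 3 groups did not overlap and DKO-het lay in between. Cd44, the hyaluronan receptor, rose in TKO against the controls (2.07, adjusted p = 0.00403), with DKO-het at 0.63 from them (adjusted p = 0.495), and differed between the mutants by 1.44 (SE 0.40, adjusted p = 0.485). Knstrn, a kinetochore protein gene (1.39), and Mki67, the gene of the proliferation antigen Ki-67 (1.58), rose in TKO against the controls as well (2.73 and 2.13, adjusted p = 6.71e-04 and 0.00929). Their DKO-het values, 1.34 and 0.55 from the controls, did not pass (adjusted p = 0.0941 and 0.647). Glipr2 (1.87), Sh2b1, an adaptor of cytokine and insulin receptors (1.58), and Pde6d, a chaperone of prenylated proteins (1.40), complete the genes named here by size, with adjusted p of 0.511, 0.511 and 0.444.

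Genes of G2/M phase and mitosis had the highest median of the lists described here. Of 29 tested members 0 were called, and all 29 had a higher mean in TKO than in DKO-het, with a median difference of 1.04 against 0.09 over all genes. At an unadjusted p under 0.05, 16 members were higher, where 5.3% of all genes were, and 19 had no overlap between TKO and DKO-het, where 22.8% of all genes were higher without overlap. The checkpoint kinase gene Bub1b was at 4.21 and 3.78 in TKO, 2.17 and 3.15 in DKO-het and 2.17 and 1.66 in the floxed controls (1.33, SE 0.37, adjusted p = 0.485). Top2a, the topoisomerase of dividing cells, was at 4.77 and 4.91 in TKO, 3.21 and 4.00 in DKO-het and 3.25 and 2.29 in the controls (1.23, SE 0.36, adjusted p = 0.511). Mki67 was at 5.23 and 5.79 in TKO, 4.57 and 3.28 in DKO-het and 3.04 and 3.71 in the controls. TKO was highest in each of these 3 genes, and DKO-het overlapped the controls in Mki67 and Top2a.

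The median over the mitosis members stood above the mean of the floxed controls by 2.42 and 1.92 in TKO 1 and TKO 2, and by 0.85 and 1.44 in DKO-het 1 and DKO-het 2. In these medians TKO 1 was the highest library and DKO-het 1 the lowest. Summed macrophage markers, given below, were also highest in TKO 1 and lowest in DKO-het 1 of the 4 libraries, and their part in this difference was not tested. Without TKO 1 the median difference was 0.58, without DKO-het 1 it was 0.58 as well, and without DKO-het 2 it was 1.37. The equal means of first and second libraries tie these values to each other, so they are not independent results. With library medians equalised it was 0.90, with 28 of 29 members positive. Before the rescaling of the spread, 7 members were called, all higher (Bub1b, Top2a, Mki67, Anln, Nusap1, Plk1 and Prc1), where 176 of all 10681 genes were called higher, and 0 with the replicate block added. That block had little to remove in the Mst experiment, given its equal means, so the 0 is no check on replicate effects. In the YAP experiment the median of these 29 genes was 0.89.

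**Figure D4:**
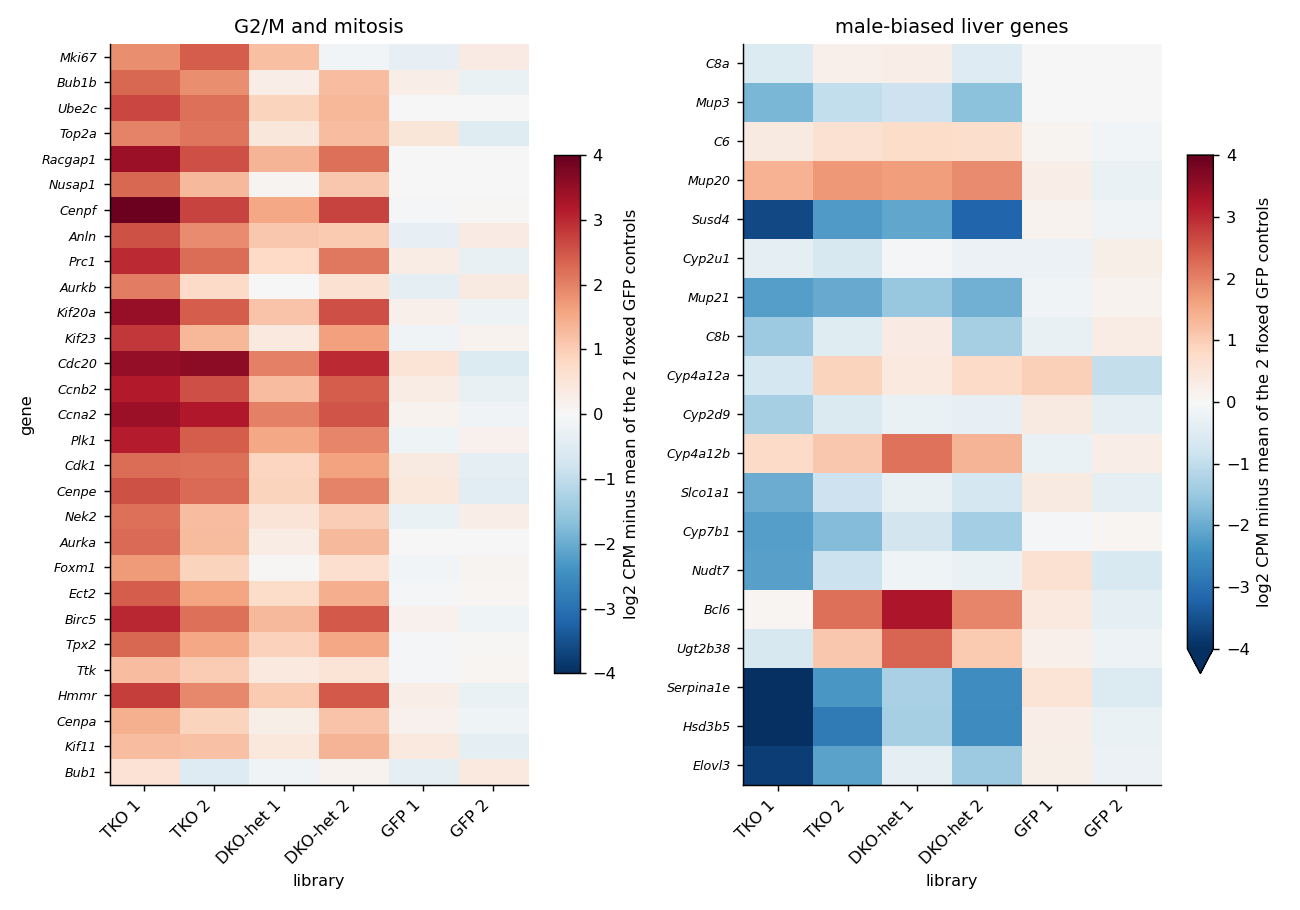
Log2 CPM minus the mean of the 2 floxed GFP controls (colour, darkest at 4 and -4 and beyond) for each tested member of the G2/M and mitosis list (left) and of the male-biased liver list (right), genes in the order of the difference between TKO and DKO-het (y axis), libraries on the x axis. The TKO columns are redder than the DKO-het columns on the left, with list medians of 2.42 and 1.92 against 0.85 and 1.44, and on the right TKO 1 is bluest, with medians of -1.46 and -0.65 in TKO against -0.19 and -0.52 in DKO-het.

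Genes of DNA replication and the G1/S step had 0 of 29 called and 28 positive, where 63.4% of all genes were above 0. At an unadjusted p under 0.05, 9 were higher, where 5.3% of all genes were. The median was 0.46, or 0.33 with 26 positive once library medians were equalised. Mcm5, a subunit of the replicative helicase, was at 3.24 and 3.84 in TKO, 2.16 and 1.64 in DKO-het and 2.60 and 2.49 in the floxed controls (1.65, SE 0.37, adjusted p = 0.42). Ccnd1, cyclin D1, was at 9.15 and 8.67 in TKO, 7.58 and 8.32 in DKO-het and 4.81 and 4.59 in the controls (0.95, SE 0.37, adjusted p = 0.747). TKO was above DKO-het in both, and DKO-het lay below the controls for Mcm5 and above them for Ccnd1. E2f8 (1.66), Mcm2 (0.96) and the primase gene Prim1 (0.88) were the other leading members. The list median from the control mean was 0.78 and 0.29 in TKO and -0.15 and 0.38 in DKO-het, so that TKO 2 was below DKO-het 2. Summed macrophage markers had that same order of the 4 libraries (679 and 188 in TKO, 103 and 338 in DKO-het), and their part in this difference was not tested. A shared order follows in part from the equal means of first and second libraries. Without DKO-het 1 the median difference was 0.35, and without TKO 2 it was 0.75.

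Markers of fetal liver, imprinted genes and liver tumour markers also had no negative member, although 1 of 17 was no longer positive with library medians equalised. Of 17 tested, 0 were called, 4 were higher at an unadjusted p under 0.05 (5.3% of all genes were) and the median was 0.64. Cd44, which led them, was at 5.88 and 4.88 in TKO, 3.45 and 4.43 in DKO-het and 3.30 and 3.31 in the floxed controls. The imprinted noncoding RNA H19 was at 5.44 and 6.25 in TKO, 4.49 and 4.91 in DKO-het and 2.89 and 1.73 in the controls (1.14, SE 0.41, adjusted p = 0.707). In the YAP experiment H19 rose in YAP null (2.83, adjusted p = 0.00709). The Golgi membrane protein gene Golm1 (1.0) and the imprinted zinc-finger gene Peg3 (0.95) had no overlap either. In all, 9 of the 17 were higher without overlap, where 22.8% of all genes were. The list median from the control mean was 0.97 and 1.29 in TKO and 0.39 and 0.32 in DKO-het, and with any 1 of the 4 libraries left out the median difference lay between 0.59 and 0.70.

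Biliary and progenitor markers, among which Sox9 itself was not counted, had 0 of 25 called, 17 positive and a median of 0.19. Pkhd1, the gene of fibrocystin of the primary cilium, was at 6.0 and 5.90 in TKO, 4.87 and 5.07 in DKO-het and 3.68 and 3.57 in the floxed controls (0.98, SE 0.31, adjusted p = 0.597). The epithelial transcription factor gene Elf3 was at 6.78 and 5.90 in TKO, 5.25 and 5.45 in DKO-het and 2.32 and 3.04 in the controls (0.99, SE 0.38, adjusted p = 0.752). The 3 groups were in the same order without overlap in both genes. Several of the highest markers had small differences between the mutants. Spp1, osteopontin, was at 11.85 and 11.80 in TKO, 11.59 and 11.56 in DKO-het and 7.37 and 7.45 in the controls. The progenitor transcription factor gene Sox4 was at 7.0 and 6.89 in TKO, 7.08 and 6.88 in DKO-het and 1.62 and 1.92 in the controls, a difference of -0.035. The 6 tested Sox genes other than Sox9 lay between -0.085 and 0.53. Krt23 (0.17), Krt18 (0.19) and the E-cadherin gene Cdh1 (-0.015) had overlapping groups. Among 27 genes of polycystic disease and cilia, 0 were called, 22 were positive and the median was 0.24, with the ciliary kinase gene Nek8 (0.76) beside Pkhd1.

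YAP and TAZ target genes had 0 of 23 called, 17 positive and a median of 0.18, or 0.053 with library medians equalised. Ctgf, the best known target, was at 7.40 and 7.84 in TKO, 7.22 and 7.02 in DKO-het and 0.90 and 0.73 in the floxed controls (0.50, SE 0.35). Cyr61 was at 9.85 and 8.86 in TKO, 8.14 and 9.08 in DKO-het and 5.83 and 5.88 in the controls (0.75, SE 0.43). The mutant groups overlapped for Cyr61 and were far above the controls for both genes. Over the whole list the median from the controls was smaller, 1.055 in TKO and 0.93 in DKO-het, and members differed. Ankrd1 lay between -0.09 and 0.26 in TKO, DKO-het and controls alike. Nt5e was at 0.65 and 0.26 in TKO and -0.32 and 1.24 in DKO-het, below the 4.76 and 3.62 of the controls. Crim1 (0.64) and Myof (0.99) were the members with the smallest unadjusted p, 0.0256 and 0.0431. The 27 Hippo components had 23 positive members and a median of 0.25, among them the LATS cofactor Mob1a (0.54) and the kinase gene Map4k4 (0.79), with 0 called. Notch genes (11 tested, 8 positive, median 0.14), TGF-beta pathway genes (26 tested, 21 positive, median 0.24) and extracellular matrix genes (28 tested, 23 positive, median 0.23) had 0 called as well. With library medians equalised, the medians of these 4 lists were 0.11, 0.0032, 0.11 and 0.093, and quantile normalization put that of the Notch genes at -0.05. The Notch median also turned to -0.095 without TKO 1 and -0.125 without DKO-het 1, and was 0.43 without DKO-het 2. Bmp6, the ligand that sets hepcidin, was at 5.12 and 5.26 in TKO, 4.42 and 3.50 in DKO-het and 3.00 and 3.78 in the controls (1.23, SE 0.40, adjusted p = 0.638). The receptor gene Tgfbr2 (0.69), the signal transducer Smad3 (0.72), the membrane protease gene Mmp14 (0.84) and the basement membrane genes Col4a1 (0.73) and Nid1 (0.92) led the other members. Higher without overlap were 10 of 26 TGF-beta genes and 9 of 28 matrix genes, where 22.8% of all genes were. Lower without overlap were 0 and 1 of them, where 7.72% of all genes were.

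**Figure D5:**
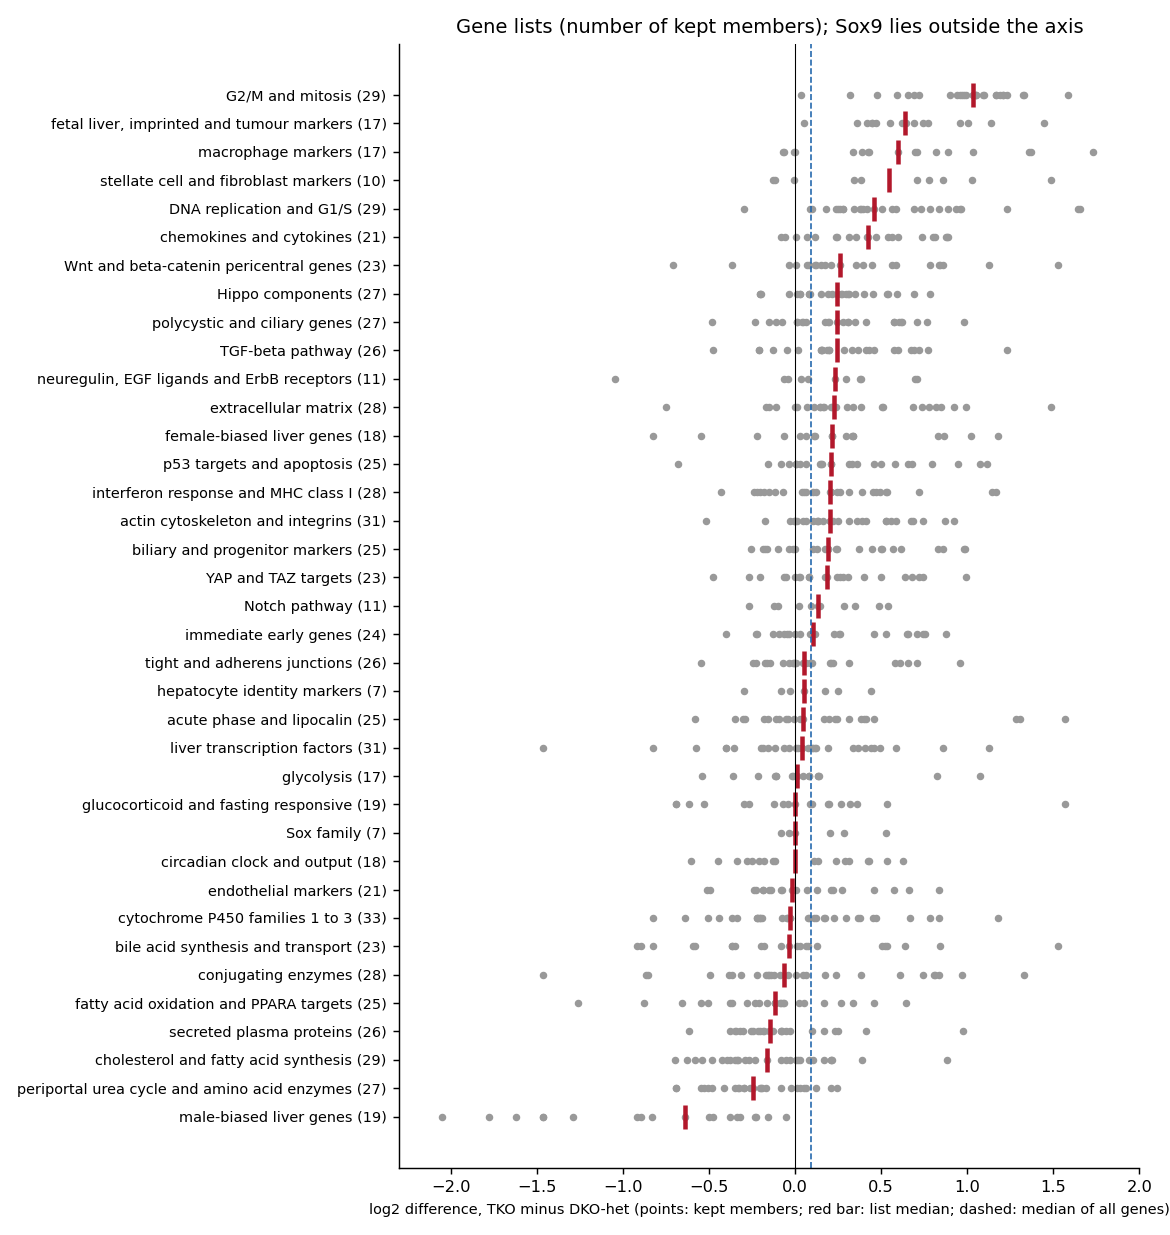
Log2 difference between TKO and DKO-het (x axis) for each tested member (grey points) of the lists with at least 5 tested members (y axis, number in brackets), with the list median as a red bar and the median of all genes, 0.09, as a dashed line. The G2/M and mitosis list is at the top with a median of 1.04 and the male-biased liver list at the bottom with -0.64, and these 2 and the fetal list have members on 1 side of 0 only, except 1 member each of the mitosis and fetal lists with library medians equalised.

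Male-biased liver genes, which in the mouse depend on pulses of growth hormone, were lowest. Of 19 tested, 0 were called and all 19 had a lower mean in TKO, with a median of -0.64. At an unadjusted p under 0.05, 4 members were lower (0.59% of all genes), and 10 were lower without overlap (7.72%). Elovl3, a fatty acid elongase gene, was at 0.07 and 1.69 in TKO, 3.48 and 2.38 in DKO-het and 4.09 and 3.59 in the floxed controls (-2.06, SE 0.72, adjusted p = 0.685). Nudt7, a peroxisomal coenzyme A hydrolase gene, was at 6.37 and 7.70 in TKO, 8.37 and 8.29 in DKO-het and 9.17 and 7.94 in the controls (-1.29, SE 0.47, adjusted p = 0.709). In both genes TKO 1 was the lowest library. Hsd3b5 (-1.78), a steroid dehydrogenase gene, was low in all libraries. Bcl6 (-1.46), a repressor with male-biased expression, was the exception in its levels, at 4.79 and 6.91 in TKO, 7.96 and 6.68 in DKO-het and 5.12 and 4.33 in the controls, with overlapping mutant groups. The list median from the control mean was -1.46 and -0.65 in TKO and -0.19 and -0.52 in DKO-het. Without TKO 1 the median difference was -0.32, without TKO 2 it was -1.01 and without DKO-het 2 it was -1.09. Here too TKO 1, the library highest in macrophage markers, was the extreme one, and the part of those cells was not tested. The equal means of first and second libraries also limit what this order can show. The 18 female-biased genes had a median of 0.21 with 14 positive, which was 0.083 with 10 positive once library medians were equalised and -0.066 without TKO 2. In the YAP experiment, which shares no library with these groups, the median was -0.735 for the male-biased genes. There it was 1.477 for the female-biased genes and 0.15 over all genes.

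Pericentral genes, which depend on Wnt and beta-catenin, had 0 of 23 called, 20 positive and a median of 0.26, or 15 positive and 0.13 with library medians equalised. Beside Cyp7a1, the receptor gene Ahr was at 7.25 and 7.04 in TKO, 6.04 and 6.68 in DKO-het and 6.62 and 6.19 in the floxed controls (0.79, SE 0.27, adjusted p = 0.687). Tbx3, a transcription factor gene of this zone, was at 4.27 and 4.82 in TKO, 4.00 and 2.85 in DKO-het and 4.19 and 4.74 in the controls (1.12, SE 0.46). Both had TKO above DKO-het, with the controls overlapping TKO for Tbx3. Glul, glutamine synthetase, went the other way, at 4.86 and 5.08 in TKO, 5.60 and 5.76 in DKO-het and 8.19 and 7.86 in the controls (-0.71, SE 0.32, unadjusted p = 0.0437). Without DKO-het 1 the list median was -0.011. The periportal enzymes of the urea cycle and amino acid breakdown had 0 of 27 called, 7 positive, 20 negative and a median of -0.25, or -0.025 without TKO 1. Secreted plasma proteins had 6 of 26 positive and a median of -0.14.

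Other hepatocyte functions gave medians between -0.17 and 0.04, with 0 called in each list. These were bile acid genes (23 tested, -0.035), cytochrome P450 families 1 to 3 (33 tested, -0.03), conjugating enzymes (28 tested, -0.065), cholesterol and fatty acid synthesis (29 tested, -0.17), fatty acid oxidation (25 tested, -0.12), glycolysis (17 tested, 0.01) and liver transcription factors (31 tested, 0.04). Without overlap, 9 of 29 cholesterol and fatty acid synthesis genes were lower and 2 higher, where 7.72% and 22.8% of all genes were. Of 28 conjugating enzymes, 7 were higher and 3 lower without overlap. In the YAP experiment the cholesterol and fatty acid synthesis median was 0.66, against 0.15 over all genes. The glutathione transferase gene Gstm2 was at 7.65 and 6.98 in TKO and 5.88 and 6.81 in DKO-het (0.97). The mevalonate pathway gene Mvd was at 5.36 and 5.43 in TKO and 6.22 and 5.83 in DKO-het (-0.63). Nr0b2, which encodes the bile acid-responsive repressor SHP of Cyp7a1, was at 4.44 and 3.39 in TKO, 4.34 and 5.15 in DKO-het and 4.85 and 5.12 in the floxed controls (-0.83, unadjusted p = 0.0461). The groups overlapped for Nr0b2. The 7 tested hepatocyte identity markers had a median of 0.05, and Alb was at 15.46 and 15.53 in TKO, 15.12 and 15.37 in DKO-het and 15.35 and 15.10 in the controls.

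Markers of the cell types that the sort should leave out were examined for the same 4 libraries. Macrophage markers had 13 of 17 positive and a median of 0.60, but went with single libraries. Their linear values summed to 679 and 188 in TKO, 103 and 338 in DKO-het and 78.1 and 86.5 in the floxed controls. TKO 1 and DKO-het 2 were thus the high ones and the mutant groups overlapped. With equal means of first and second libraries, a high TKO 1 goes in part with a high DKO-het 2 by construction. The list median was -0.18 without TKO 1, -0.06 without DKO-het 1, 1.38 without TKO 2 and 1.47 without DKO-het 2. Clec4f, a Kupffer cell receptor, followed this order, at 5.31 and 3.12 in TKO and 2.37 and 4.29 in DKO-het, and the defining gene Adgre1 lay between 0.70 and 1.55 in all 4. Endothelial markers had 10 of 21 positive and a median of -0.02, with sums of 569 and 529 in TKO, 509 and 643 in DKO-het and 72.5 and 77.1 in the controls. The sinusoidal receptor gene Stab2 was at 6.80 and 5.93 in TKO and 6.05 and 6.97 in DKO-het. Endothelial sums thus differed between mutants and controls and overlapped between the mutants. Stellate cell and fibroblast markers had 7 of 10 positive and a median of 0.55, with sums of 109 and 125 in TKO, 95 and 72 in DKO-het and 42.6 and 53.8 in the controls. Of the markers of T and NK cells, B cells and neutrophils, 0 were tested. Ptprc, which encodes CD45, was at 1.11 and 1.60 in TKO and 0.70 and 0.47 in DKO-het, and Epcam was at 0.85 and 0.82 in TKO and 0.83 and 1.05 in DKO-het. The part of these other cells in the differences between TKO and DKO-het was not tested.

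Chemokines and cytokines, many of them made by macrophages too, had 0 of 21 called, 19 positive and a median of 0.42 (0.19 without TKO 1). Ccl2 was at 6.05 and 4.80 in TKO, 4.16 and 4.93 in DKO-het and 2.62 and 3.08 in the floxed controls (0.88, SE 0.41), and the mutant groups overlapped. The acute phase list had 0 of 25 called and a median of 0.045, or -0.087 with library medians equalised. At an unadjusted p under 0.05, 3 members were higher, where 5.3% of all genes were. These were the cytokine feedback inhibitor Socs3 (1.28), the metallothionein gene Mt1 (1.57) and the lipocalin gene Lcn2 (1.30). Socs3, which also lies on chromosome 11 (5.18 Mb after Sox9), was at 5.59 and 4.98 in TKO, 3.91 and 4.08 in DKO-het and 3.53 and 3.88 in the controls (SE 0.33, adjusted p = 0.444). Among the immediate early genes Myc was at 6.64 and 6.64 in TKO, 5.96 and 5.57 in DKO-het and 4.89 and 5.26 in the controls (0.88, SE 0.30, adjusted p = 0.65). In both Socs3 and Myc the TKO libraries were above DKO-het, and DKO-het above the controls. The interferon list (28 tested, 20 positive) had a median of 0.20, led by Ifit2 at 5.39 and 5.34 in TKO, 3.95 and 4.49 in DKO-het and 1.79 and 1.32 in the controls (1.15, SE 0.33).

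Whether loss of the second Sox9 allele acted differently under Mst deletion and under YAP S127A was tested as the difference between the 2 experiments. By limma 0 of 10681 genes passed, with 322 (3.01%) at an unadjusted p under 0.05. The count that passed was 66 with the spread before rescaling, 5 with the replicate number as a block and 18 without library 1 of YAP het. The YAP experiment on its own had 707 (6.62%) at that level. Beside Sec22a, the smallest p-values were those of Egr1, which encodes an immediate early transcription factor, and of Cyp4a31, a fatty acid hydroxylase gene. Egr1 was at 8.86 and 8.47 in TKO and 9.08 and 8.69 in DKO-het (-0.22), against 4.79 and 4.76 in YAP null and 7.79 and 7.11 in YAP het, where it fell by 2.68 (adjusted p = 3.66e-04). The difference between experiments was 2.46 (SE 0.42, adjusted p = 0.127). Cyp4a31 was at 1.93 and 1.22 in TKO and 2.54 and 3.13 in DKO-het (-1.26), against 6.05 and 5.15 in YAP null and 3.68 and 2.06 in YAP het, where it rose by 2.73 (adjusted p = 0.0323). Its difference between experiments was -3.99 (SE 0.70, adjusted p = 0.127). Thus both genes had no overlap within the YAP experiment, and in the Mst experiment Egr1 overlapped while Cyp4a31 was lower in TKO.

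Among genes other than Sox9, those with an unadjusted p under 0.01 in the Mst experiment had the same sign in the YAP experiment in 117 of 151 cases when higher (77.5%), where 73.9% of all higher genes did. Of the lower ones 6 of 10 had the same sign (60%), where 35.8% of all lower genes did. Sharing of sign among higher genes was thus close to its background. The median difference over all genes was 0.15 between YAP null and YAP het. Across all 10681 genes, which are not independent, the 2 sets of differences correlated with r = 0.229. Of the 151 higher genes 3 were called in the YAP experiment, where 10 of all 6773 higher genes were, and of the 10 lower ones 1, where 7 of all 3862 lower genes were. The 3 were Vamp2, 2610507I01Rik and Rnf187, and the 1 was Tmub2. All of them lie on chromosome 11, where sequence linked to the floxed Sox9 alleles and Sox9 loss cannot be told apart.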

How the data were processed

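Messenger RNA of sorted mouse hepatocytes was read with the Ion AmpliSeq mouse transcriptome panel on an Ion S5 Plus, per the labels' protocols. The authors deposited log2 CPM values for 16116 genes in 12 libraries; no source used here names the aligner, the counter, the genome build, the read depth or any later adjustment. Per the values themselves, in 16080 genes each deviation from a group mean was a whole number of steps of 1 size (tolerance 2e-06), with a median rescaling factor of 1.58 in the genes kept (5th to 95th percentile 0.964 to 2.95), and the 2 sets of GFP controls had the same mean, with a median gap of 0.00849.

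Kept were the 10681 genes that reached log2 1 in 2 or more libraries. In R 4.3.3, limma 3.58.1 estimated 6 group means from the 12 libraries, trended prior variance (6 residual and 9.42 prior degrees of freedom), two-sided, Benjamini-Hochberg adjusted over all kept genes, called under 0.05. The first and second libraries of the Mst experiment had equal means gene by gene, which removes freedom that the 6 residual degrees still count, and the p-values ignore this. The test was tested on simulated data. SE is that of the fitted difference. Fold changes are of log2 means and carry no added pseudocount.

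Groups came from the labels. Members and gene lists were chosen with earlier results of these data known. Of 942 list members, 860 were in the table, in 43 lists, 40 with tested members; no set test was run. Named were Sox9, Stk4, Stk3, Yap1, all called genes, up to 15 with the largest difference in each direction at an unadjusted p under 0.01 without overlap and with a mean log2 of at least 4, the 3 with the smallest p between experiments, and members leading their lists by p; neighbours of called genes and some list members were named after their values were seen. Positions are from GENCODE M21 (GRCm38), found for 97.5% of kept genes, and promoters from RefSeq. Alternatives were other filters, scalings, a pseudocount of 1, a constant prior, fewer libraries, the spread before rescaling, the replicate block and each library left out.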

Additional observations from a re-analysis of the deposited data

How the results depend on the processing

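Sox9 kept its fall and its call in each alternative run (-5.12 to -4.43), as did Tmub2; the 3 other calls did not. The count of 5 was 2 without a filter on low values, 2 in the Mst experiment alone, and 202 with the spread before rescaling. With 1 library left out it lay between 3 and 20: 3 without DKO-het 2 and 20 without DKO-het 1 (17 higher and 3 lower). The other counts were 4, with a constant prior, to 7. Vamp2, 2610507I01Rik and Sec22a lost the call without a filter (adjusted p = 0.613, 0.361 and 0.245) and in the Mst experiment alone (0.702, 0.489 and 0.431), and Vamp2 with a constant prior (0.0918). Stk4 lay between -0.45 and 0.038 with 1 library left out (0.038 without DKO-het 2). Stk3 was at -0.047 with library medians equalised, -0.068 after quantile normalization, and between -0.15 and 0.32 with 1 library left out (-0.15 without TKO 2 and -0.016 without DKO-het 2). The 0 genes called between experiments were 66 with the spread before rescaling (20 higher and 46 lower), and 0 to 18 with 1 library left out, 18 without YAP het 1. With the replicate number as a block, 7 genes were called between TKO and DKO-het and 5 between experiments. In the Mst experiment this block had little to remove, because first and second libraries already had equal means. Same-numbered libraries deviated in opposite ways (r = -0.644 between TKO and DKO-het), as follows from the equal means of first and second libraries, so this cannot show whether the numbers pair samples, and no label says so; a block with the numbers crossed in DKO-het, chosen after seeing the data, gave 3, and Vamp2 and 2610507I01Rik lost the call there (0.0971 and 0.0838). The block with the spread before rescaling was also chosen after seeing the data and gave 5, without Vamp2 (0.0907). The cause of these shifts was not tested. Over the alternatives, 415 of 464 values of named genes and 502 of 592 list medians kept direction and side of the threshold or moved within the spread. Without read depth, the precision of low values such as Tmub2 in TKO, or Vamp2 and 2610507I01Rik in YAP het, is unknown.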

Other observations

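Growth factor genes of the ErbB family, not described above, had 0 of 11 called, 8 positive members and a median of 0.23. That median was 0.098 with 6 positive once library medians were equalised, -0.014 without DKO-het 1 and 0.56 without DKO-het 2. The ligand gene Btc, betacellulin, was at 5.14 and 4.80 in TKO, 4.02 and 4.52 in DKO-het and 3.44 and 3.27 in the floxed GFP controls (0.70, unadjusted p = 0.0346). Its receptor gene Egfr, described above, differed by -1.05 and did not pass. The neuregulin gene Nrg1 was at 8.51 and 7.67 in TKO, 7.14 and 8.28 in DKO-het and 2.56 and 2.28 in the controls, with overlapping mutants.

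Cell junction genes had 0 of 26 called and a median of 0.05 with members on both sides. The gap junction gene Gjb2 was at 7.98 and 7.91 in TKO, 8.31 and 8.67 in DKO-het and 8.59 and 8.36 in the controls (-0.55, unadjusted p = 0.0347). Among p53 targets and apoptosis genes (25 tested, 21 positive, median 0.20, 0 called), Zmat3 (0.80), Sesn2 (0.94) and Mcl1 (0.58) were higher and Sesn1 (-0.68) lower in TKO without overlap between the mutant libraries. In that list 8 members were higher and 2 lower without overlap, where 22.8% and 7.72% of all genes were.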
